A study of Mus musculus with 7 samples.

Results

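Zfp750 was described together with 5 transcription factors of epidermal differentiation (Trp63, Klf4, Grhl3, Ovol1 and Prdm1) and 4 chromatin proteins (Kdm1a, Rcor1, Ctbp1 and Ctbp2). The 10 genes were taken by name from a table of 25322 genes, and each had 1 row. All 10 passed the filter on low values, among 18141 genes in all. The libraries are bulk RNA-seq of sorted mouse skin cells that express the red reporter tdTomato, labelled day 36, with 3 controls and 4 Zfp750 knockouts (Zfp750_KO). The labels give every animal a Lrig1-driven CreER or CreERT2 allele (+/-), so that recombination starts in cells that express Lrig1, a hair follicle gene typical of the junctional zone. Every animal received 4-hydroxytamoxifen on days 4 to 7 or 5 to 8 of age. The knockouts carry ZNF750 fl/fl, with Rosa26 +/- in 3 of them and -/- in 1. Of the controls, 2 carry ZNF750 wt/fl and 1 carries wt/wt, all with Rosa26 +/-. A reporter inserted at Rosa26 would be missing from a -/- animal, and the labels do not say how those cells were sorted. The column names give the group but no sample title, so the wt/wt control and the Rosa26 -/- knockout could not be tied to a column. The libraries are therefore called by their column names. Values are given throughout in the order 4F, 4M, 7F for the 3 controls and 1M, 2M, 3F, 6F for the 4 knockouts. Genotypes that differ within a group belong to separate animals, but the labels do not say so for every library, and p-values measure the library-to-library spread. Positions of genes are those in the deposited table, whose genome build is not named in its header or the labels and is not that of the promoter windows given next, so the 2 sets of positions cannot be compared.

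Zfp750 is the mouse counterpart of ZNF750, a zinc finger protein that is switched on as keratinocytes leave the basal layer. The p63 protein, encoded by Trp63, holds the identity of stratified epithelium and activates ZNF750, and ZNF750 in turn works with KLF4 to turn on genes of terminal differentiation. ZNF750 also binds the lysine demethylase LSD1 (Kdm1a), its scaffold CoREST1 (Rcor1) and the corepressors CtBP1 and CtBP2, with which it silences genes of basal progenitors.

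Promoter sequences in RefSeq, build GRCm38.p6, were matched by symbol for 7 of the 10 genes: Klf4, Grhl3, Prdm1, Kdm1a, Rcor1, Ctbp1 and Ctbp2. Each window runs from 250 bases before the start of the gene to 50 after it. Of the genes whose values separated the groups below, Klf4 and Prdm1 have such a window, and both are shown because their differences had opposite signs. The windows were searched on both strands for CCNNNAGG, a motif described for human ZNF750, and a match is in capitals. Klf4 lies at chr4:55532426-55532725 on the minus strand and Prdm1 at chr10:44458699-44458998 on the minus strand. Both sequences read 5′ to 3′ along the gene.
Klf4: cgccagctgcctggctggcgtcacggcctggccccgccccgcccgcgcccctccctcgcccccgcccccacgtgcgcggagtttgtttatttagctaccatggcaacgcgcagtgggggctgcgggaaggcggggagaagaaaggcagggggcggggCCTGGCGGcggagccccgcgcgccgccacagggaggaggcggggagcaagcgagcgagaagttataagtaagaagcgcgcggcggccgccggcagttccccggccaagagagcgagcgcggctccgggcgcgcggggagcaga
Prdm1: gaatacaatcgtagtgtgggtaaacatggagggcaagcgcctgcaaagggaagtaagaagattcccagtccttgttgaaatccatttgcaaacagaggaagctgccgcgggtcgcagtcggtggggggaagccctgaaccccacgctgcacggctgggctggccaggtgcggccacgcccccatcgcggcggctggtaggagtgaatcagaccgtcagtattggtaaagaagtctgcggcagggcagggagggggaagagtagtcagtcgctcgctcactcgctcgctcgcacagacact
The Klf4 window is 74.3% G and C and holds 1 match at position -93 from the start, on the opposite strand, so that the printed strand carries its reverse complement. The Prdm1 window is 59.7% G and C and holds no match. Among the other genes the letters occurred once in the window of Grhl3, at the same place on both strands in that of Kdm1a, at 2 places in that of Rcor1 and at 2 places in 1 of the 2 windows of Ctbp2, and Ctbp1 had none. Of all 32851 promoter windows of this length, 53.8% held the motif. These matches describe letters only, and no binding was measured here.

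The depth, worked out from the steps between low values, was 9.09 to 17.1 M reads per library. Transcripts of other cell types differed widely within both groups, and in bulk libraries fewer cells of a type and less RNA per cell cannot be told apart. Summed over the 20 macrophage genes, the level ran from 95.4 to 5481 per M of the library total in controls and from 223 to 9663 per M in Zfp750_KO. Summed over the 10 keratinocyte genes it ran from 354 to 3238 per M in controls and from 345 to 2898 per M in Zfp750_KO, and over the 10 fibroblast genes from 91152 to 181154 and from 18695 to 115591 per M. None of the 10 keratinocyte and none of the 10 fibroblast genes was at 0 in any library. Control 4F and Zfp750_KO 1M and 2M had the highest keratinocyte and the lowest macrophage sums. The junctional zone markers Lrig1, Plet1, Lgr6 and Gata6 were above 0 in all 7 libraries and summed to 51.2 to 180 per M. Lrig1 was the largest of the 4 in each library, at 27.8 to 134 per M. Gata6 was lowest in Zfp750_KO 2M and control 4F, where Lrig1 was high. Which cells carried these transcripts was not tested.

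Zfp750 (ENSMUSG00000039238, chr11:121401804-121410159, minus strand) had normalized values of 335, 51.2 and 61.9 in the controls. In the knockouts the values were 48.9, 45.4, 10.1 and 29.6. Every Zfp750_KO library was below every control, but the gap between control 4M and Zfp750_KO 1M was small, and control 4F stood far above all the others. These values rest on 433, 39 and 55 reads in the controls and on 47, 47, 9 and 43 reads in Zfp750_KO. In limma, fitted over all 18141 genes on log2(value + 11.9), the log2 difference (knockout minus control) was -1.47 ± 0.66 (SE, 95% interval -3.01 to 0.07) with a limma adjusted p of 0.891, and it was -0.69 without control 4F. The exact permutation p (two-sided) was 0.0571, the smallest that 35 arrangements of 7 libraries allow. The gene lies within Tbcd, a tubulin cofactor gene on the opposite strand, and the strand setting of the counting is not given in the sources used here. Values of Tbcd spanned 457 to 611 in the controls and 509 to 652 in the knockouts, with a log2 difference of 0.12 ± 0.18 (SE). Which exons are deleted is not given either, so the reads left in Zfp750_KO were not assigned to intact or deleted transcripts.

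Trp63 (ENSMUSG00000022510, chr16:25502513-25710852) was high in the libraries with high keratinocyte sums, in both groups. Its values were 3609, 307 and 526 in the controls and 2073, 1305, 229 and 518 in the knockouts. The groups overlapped, and the 3 high libraries were the 3 with the highest keratinocyte sums. The log2 difference was -0.15 ± 1.00 (SE, 95% interval -2.49 to 2.19), which is from 0.177-fold to 4.58-fold. As a share of Krt5, a basal keratin, Trp63 stood at 24.6% to 36.8% in controls and 17.0% to 31.5% in Zfp750_KO, while the Trp63 value itself spanned 15.8-fold. As a share of Krt14, the partner of Krt5, it was at 73.5%, 53.2% and 82.0% in the controls and at 25.5%, 48.1%, 53.0% and 31.7% in the knockouts. These groups did not overlap, by a narrow gap between control 4M and Zfp750_KO 3F. Trp63 over Krt14 was 1.76 times as high in the controls on average, and this ratio was not tested. Relative to the mean log2 value of the keratinocyte genes, the Trp63 groups overlapped. That log2 difference was -0.37 (exact permutation p = 0.114), so the separation over Krt14 did not extend to the keratinocyte genes as a set.

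Set against Trp63 in the same library, Zfp750 was lower in every Zfp750_KO library. Zfp750 was at 9.29%, 16.7% and 11.8% of the Trp63 value in the controls. In the knockouts it was at 2.36%, 3.48%, 4.43% and 5.72%. The groups did not overlap, and control 4F, which had the highest Zfp750 value of all, had the lowest share among controls. Controls averaged 12.6% ± 3.76 (SD, n = 3) and knockouts averaged 4.00% ± 1.43 (SD, n = 4), a 3.14-fold difference. On the log2 scale, relative to the mean of the 10 keratinocyte genes, Zfp750 differed by -1.69 between the groups (exact permutation over 35 arrangements, p = 0.0571). The 10 genes were not uniform: with the group as the only term their limma differences ran from -0.35 (Cdh3) to 1.32 (Epcam). Of these differences 6 were positive and 4 negative. Relative to Trp63, a reference chosen after seeing the data, the Zfp750 difference was -1.32 with the same exact p. This test was run for 6 factors, and none can fall below 0.0571. The share of all genes that separate on these relative scales was not worked out.

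**Figure D1:**
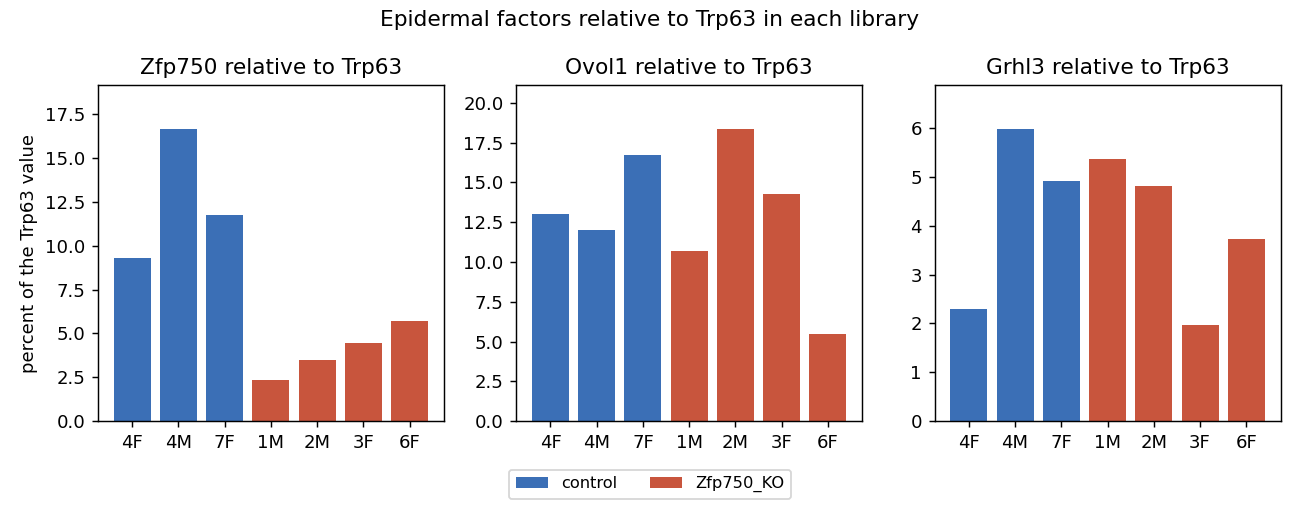
Bars give the value of Zfp750, Ovol1 and Grhl3 as a percent of the Trp63 value in each of the 7 libraries, with controls in blue and Zfp750_KO in red and each vertical axis starting at 0. Zfp750 lies between 9.29% and 16.7% in controls and between 2.36% and 5.72% in Zfp750_KO, while the groups overlap for Ovol1 and Grhl3.

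Ovol1 and Grhl3, which promote the exit of keratinocytes from the progenitor state and barrier formation, did not show this separation. Ovol1 (ENSMUSG00000024922, chr19:5599164-5610674), a zinc finger repressor, was at 470, 36.9 and 88.1 in the controls and at 221, 240, 32.7 and 28.5 in the knockouts. Its high libraries were again control 4F and Zfp750_KO 1M and 2M, so the groups overlapped. Relative to Trp63, controls averaged 13.9% ± 2.49 (SD, n = 3) and knockouts averaged 12.2% ± 5.47 (SD, n = 4). Grhl3 (ENSMUSG00000037188, chr4:135269199-135300941), a grainyhead-like factor of barrier formation and wound closure, was the lowest of the 10 genes per kb of exon. It was at 82.8, 18.4 and 25.9 in the controls and at 111, 62.8, 4.51 and 19.3 in the knockouts. The lowest of these values rests on 4 reads, and Zfp750_KO 1M was above every control while 3F was below every control. Relative to Trp63, Grhl3 ran from 2.30% to 5.98% in the controls and from 1.97% to 5.37% in the knockouts. The log2 difference in the limma fit was -0.39 ± 0.99 (SE) for Ovol1 and -0.03 ± 0.74 (SE) for Grhl3. Relative to the keratinocyte genes it was -0.61 (exact permutation p = 0.343) and -0.25 (exact permutation p = 0.514). For Ovol1 that difference was -0.26 without Zfp750_KO 6F and -0.93 without Zfp750_KO 2M. For Grhl3 it was -0.70 without control 4F, where its groups did not overlap, -0.015 without control 4M, -0.032 without control 7F and -0.15 without Zfp750_KO 6F.

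Klf4 (ENSMUSG00000003032, chr4:55527143-55532466), a zinc finger factor of barrier formation that is also expressed in fibroblasts, endothelium and monocytes, was lower in every Zfp750_KO library. Its values were 11064, 11122 and 10336 in the controls, and 7155, 5742, 7945 and 7200 in the knockouts. The controls lay close together although their keratinocyte sums differed widely, and all 4 Zfp750_KO libraries were below them. The means were 10841 ± 438 (SD, n = 3) and 7011 ± 920 (SD, n = 4), and the log2 difference was -0.64 ± 0.20 (SE, 95% interval -1.11 to -0.16). The difference is larger than the spread within either group, but the limma adjusted p over all genes was 0.612, and the exact permutation p was 0.0571. Relative to Trp63 or to the keratinocyte genes Klf4 did not separate the groups, with a difference of -0.85 relative to the keratinocyte genes (exact permutation p = 0.514). That difference was -1.78 without control 4F, -0.27 without control 4M, -0.50 without control 7F, -0.35 without Zfp750_KO 1M and -1.45 without Zfp750_KO 3F. Per kb of exon Klf4 was at 1883 to 3648, against 27.3 to 430 for Trp63.

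Prdm1 (ENSMUSG00000038151, chr10:44313173-44404497), which encodes the repressor BLIMP1 of terminal keratinocytes, sebaceous cells, plasma cells and T cells, showed the largest difference of the 10 genes. It was at 260, 228 and 301 in the controls. In the knockouts it was at 3730, 3134, 1045 and 616. Every Zfp750_KO library was above every control, and 1M and 2M stood well above 3F and 6F. The means were 263 ± 36.6 (SD, n = 3) and 2132 ± 1532 (SD, n = 4), an 8.09-fold difference of means. In the limma fit with the group as the only term, the log2 difference was 2.61 ± 0.62 (SE, 95% interval 1.16 to 4.07) and the adjusted p was 0.376. Unlike Trp63, Prdm1 varied little over the controls while their keratinocyte and macrophage sums differed many times.

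The levels of some cell types can be set beside these values, and not every cell type that may express Prdm1 is covered. The 9 T cell genes summed to 6.13, 54.5 and 77.2 per M in the controls, and to 28.9, 35.3, 253 and 184 per M in the knockouts. Zfp750_KO 1M and 2M, highest in Prdm1, had lower T cell sums than control 4M and 7F and higher sums than control 4F. In the limma fit that holds a macrophage score as a covariate, all 9 T cell genes had positive differences and 2 rose, where 1.55% of all genes tested were called higher. At an unadjusted p under 0.05 there were 7 of the 9, against 17.7% of all genes tested. The 6 B and plasma cell genes summed to 2.64, 3.63 and 5.02 per M in the controls. In the knockouts their sums were 2.25, 4.72, 5.55 and 3.50 per M, so the groups overlapped. The 10 sebaceous genes summed to 741 to 840 per M in controls and to 741, 585, 747 and 1107 per M in the knockouts. In the controls the 10 fibroblast genes summed to 181154, 153215 and 91152 per M. In the knockouts these genes summed to 104790, 115591, 18695 and 52271 per M. Which cells carried the Prdm1 transcripts was not tested.

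**Figure D2:**
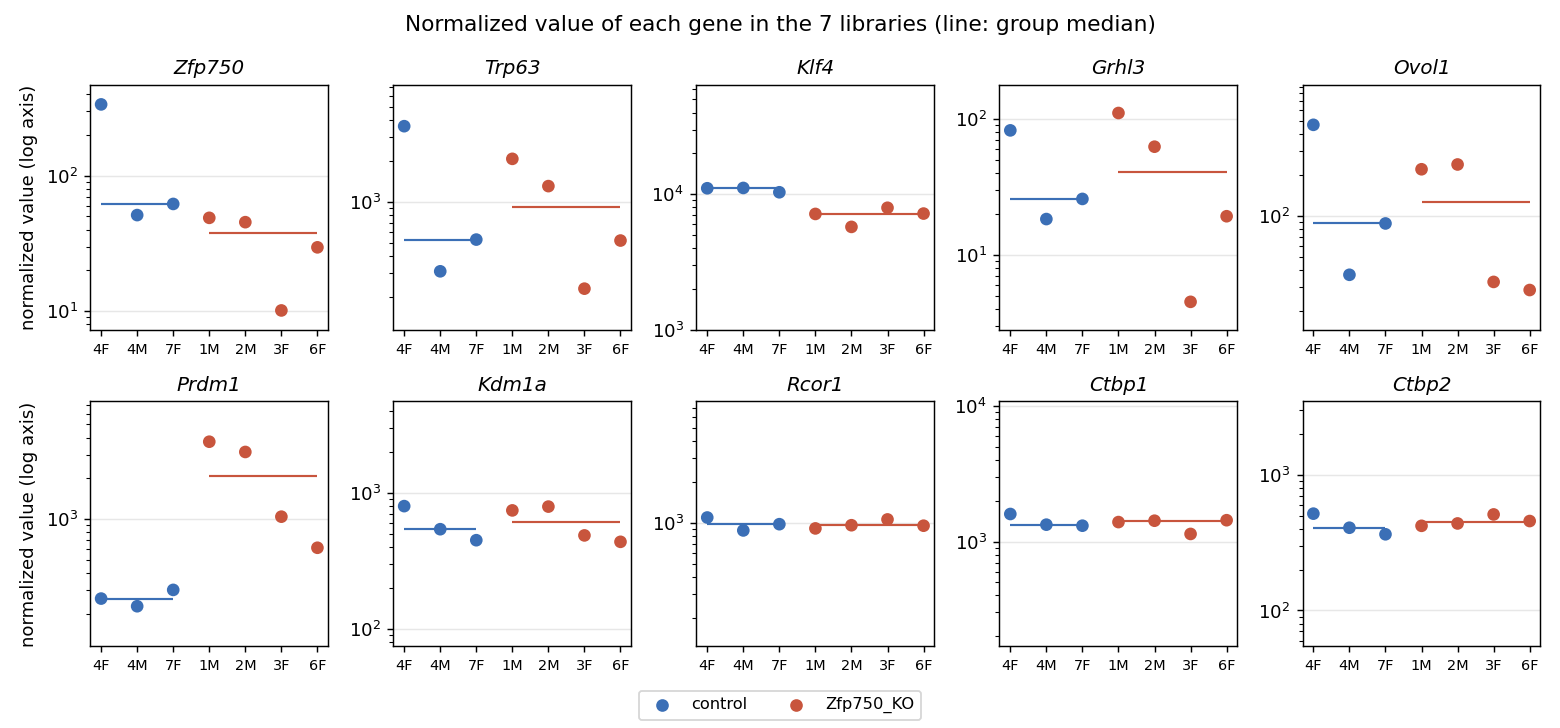
Points give the normalized value of each of the 10 genes in the 7 libraries on log axes that span the same fold range in every panel, and lines give the group medians (controls blue, Zfp750_KO red). Prdm1 is at least 616 in all Zfp750_KO libraries and at most 301 in controls, Klf4 and Zfp750 are lower in all Zfp750_KO libraries, and Rcor1, Ctbp1 and Ctbp2 are nearly level.

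Of the 4 chromatin genes, Rcor1, Ctbp1 and Ctbp2 were nearly level across libraries. Rcor1 (ENSMUSG00000037896, chr12:111005785-111082335), the CoREST scaffold, was at 1092, 877 and 975 in the controls and at 908, 958, 1057 and 950 in the knockouts. Its highest value was 1.25 times its lowest, and only 1.26% of the 18141 tested genes had a smaller range on the log2 scale. Ctbp1 (ENSMUSG00000037373, chr5:33405067-33432338), a dehydrogenase-like corepressor, was at 1596, 1331 and 1308 in the controls and at 1391, 1424, 1137 and 1436 in the knockouts. Its paralog Ctbp2 (ENSMUSG00000030970, chr7:132589292-132726083) was at 517, 407 and 364 in the same controls and at 421, 438, 511 and 456 in the same Zfp750_KO libraries. The groups overlapped for all 3 genes. The log2 differences were -0.02 (95% interval -0.39 to 0.35) for Rcor1, -0.07 (-0.47 to 0.33) for Ctbp1 and 0.10 (-0.34 to 0.53) for Ctbp2. These intervals run from 0.724-fold to 1.44-fold, so larger differences lie outside them.

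Kdm1a (ENSMUSG00000036940, chr4:136277851-136330034), the demethylase LSD1, varied more. It was at 801, 541 and 449 in the controls and at 744, 794, 487 and 437 in the knockouts. The 3 highest libraries were control 4F and Zfp750_KO 1M and 2M, and the groups overlapped, with a log2 difference of 0.04 (95% interval -0.66 to 0.74). Luzp1, which overlaps Kdm1a on the opposite strand, was also highest in those libraries, at 2156, 1994 and 1949 against 1076 to 1159 in the other 4. Without the strand setting, reads of both genes where they overlap cannot be told apart. The Ctbp2 row overlaps Fgfr2, a receptor gene on the same strand, which ran from 196 to 2293 while Ctbp2 kept within 364 to 517.

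Levels can be compared between genes only per length, here as normalized value per kb of annotated exon. Klf4 was highest, with a median of 2606 per kb, and was above Ctbp1 (311 per kb) in all 7 libraries. Ctbp1 was in turn above Rcor1 (169 per kb) in all 7, and it was 3.09 to 4.99 times Ctbp2 (70.4 per kb) in each library. Prdm1 (110 per kb) was above Kdm1a (104 per kb) in 4 of 7 libraries and Rcor1 was above Prdm1 in 4 of 7, so neither pair has a fixed order. Ctbp2 was above Trp63 (62.7 per kb) in 3 of 7 libraries. Ovol1 (25.3 per kb) was above Zfp750 (15.1 per kb) in 5 of 7 libraries, and Zfp750 was above Grhl3 (9.28 per kb) in 5 of 7.

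Across all 10 genes, Prdm1 was higher without overlap between the groups, Zfp750 and Klf4 were lower without overlap, and the other 7 overlapped. Of the 18141 genes tested, 3.19% were higher and 3.91% lower in every Zfp750_KO library than in any control. None of the 10 genes passed an adjusted p of 0.05 in limma with the group as the only term. Nor did any of the genes tested, so 0% were called higher and 0% lower. At an unadjusted p under 0.05 there were 2 of the 10 genes, Klf4 and Prdm1, and 5.83% of all genes tested. A second limma fit held the macrophage score, the mean log2 value of the 20 macrophage genes, as a covariate. In that fit Prdm1 rose by 2.71 ± 0.41 on the log2 scale (SE, 95% interval 1.78 to 3.64, limma adjusted p = 0.00998), and it was the 1 of 10 genes that passed. Here 1.55% of all genes were called higher and 2.35% lower. Without control 4M its adjusted p was 0.0508, and with the keratinocyte score as the covariate it was 0.107. This fit assumes 1 slope on the score for both groups, while Prdm1 was level over the controls and 1M and 2M were higher than 3F and 6F. Zfp750 was at -1.34 ± 0.32 (SE, limma adjusted p = 0.0551) and Klf4 at -0.65 ± 0.17 (SE, limma adjusted p = 0.0813). In this limma fit the adjusted p of Zfp750 was under 0.05 in 3 of 16 alternatives. These were the fits without Zfp750_KO 6F (0.0276), with a term for the F or M of the column names (0.0265) and with array weights (0.0297). In the other 13 Zfp750 did not pass (limma adjusted p up to 0.160). The difference of Zfp750 was -0.96 without control 4F. For Trp63 the interval narrowed to -0.67 to 0.80, and for Ovol1 and Grhl3 it was -0.80 to 0.45 and -0.61 to 0.85.

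**Figure D3:**
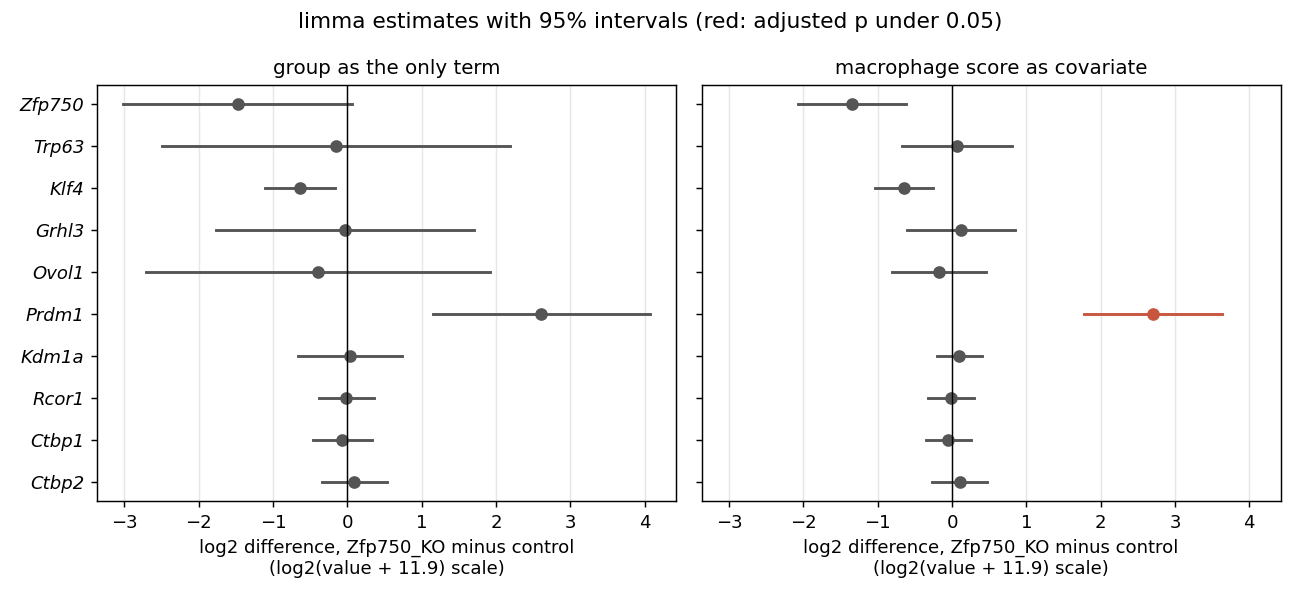
Points and bars give limma log2 differences (Zfp750_KO minus control) with 95% intervals for the 10 genes, with the group as the only term on the left and the macrophage score as a covariate on the right. Prdm1 is at 2.61 and 2.71 and passes an adjusted p of 0.05 only on the right, in red. The intervals of all 10 genes are narrower there.

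**Figure D4:**
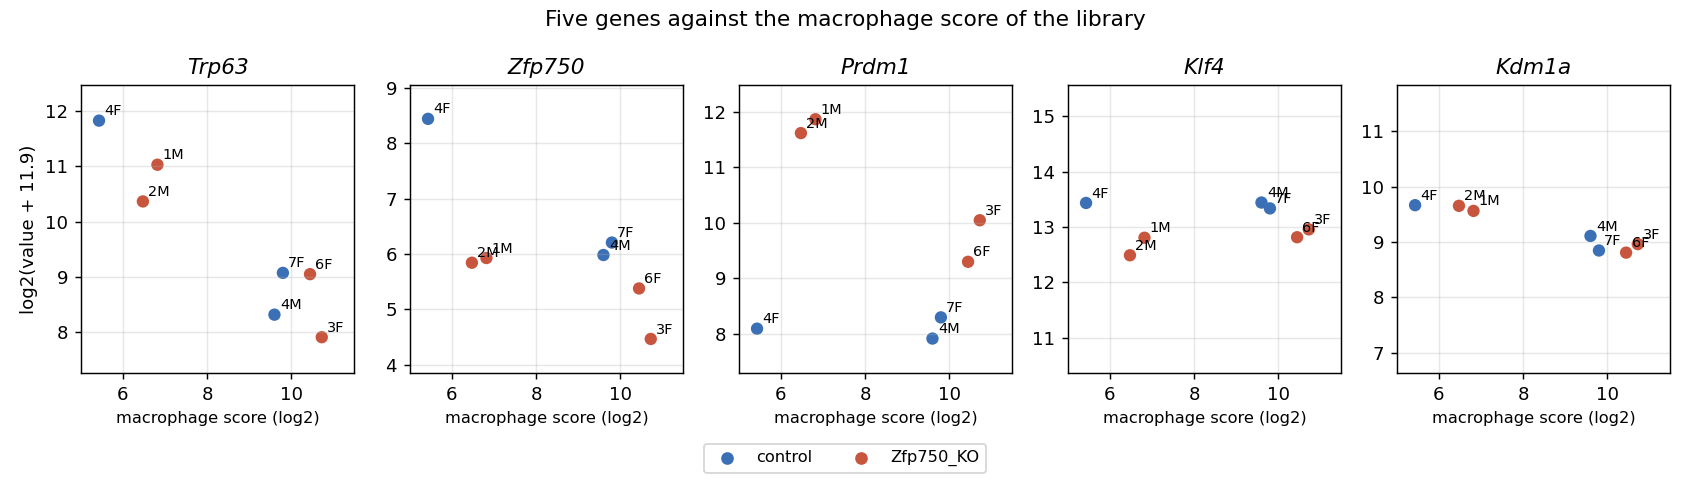
Points give log2(value + 11.9) of 5 genes against the macrophage score of the library (log2), with controls in blue and Zfp750_KO in red, and every vertical axis spans the same number of log2 units. Trp63 and Kdm1a are lower in libraries with high scores in both groups, Klf4 is level in the controls, and Prdm1 is level in the controls but highest in Zfp750_KO 1M and 2M.

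The genes whose centred log2 profile over the 7 libraries was closest to each factor were named by root-mean-square difference among 12348 genes, as a description. Being picked for likeness, they share the pattern of the factor by choice, which is no separate result. Closest to Zfp750 were the connexin gene Gjb6 at a distance of 0.21, the kinase Camk2b (0.33), Mycl (0.34), the adrenergic receptor Adra2c (0.36) and Gpm6a (0.37). Gjb6 was at 384, 42.0 and 66.4 in the controls and at 74.9, 50.2, 15.8 and 32.4 in the knockouts, so it too was highest in control 4F and lowest in Zfp750_KO 3F. Closest to Trp63 were Trim29 (0.09), the epithelial splicing regulator Esrp1 (0.15) and the syndecan Sdc1 (0.16). Trim29 was at 2703, 227 and 409 in the same controls and at 1529, 858, 148 and 364 in the same Zfp750_KO libraries. Closest to Klf4 were Ppip5k1 (0.09) and Atf3 (0.11), a stress-induced factor. Atf3 was at 9322, 8745 and 9338 in the controls and at 5958, 4244, 7441 and 6502 in Zfp750_KO, without overlap, like the Klf4 values it was matched to. Closest to Prdm1 were Timp1 (0.31), the synaptic vesicle gene Sv2c (0.35) and Podnl1 (0.38), closest to Grhl3 the phosphatase Ptpn14 (0.16), the ephrin Efnb2 (0.18) and Spats2 (0.18), and closest to Ovol1 the connexin Gja1 (0.25), Bche (0.29) and the Wnt agonist Rspo1 (0.29). Distances of genes with few reads also hold counting error.

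Other genes of the network were read from 4 lists in the fit with the macrophage score. The list of epidermal transcription factors had 28 of 30 genes tested, of which 3 rose, none fell and 25 did not pass, where 1.55% of all genes tested were called higher and 2.35% lower. At an unadjusted p under 0.05 there were 5 of the 28, against 17.7% of all genes tested. Maf, a leucine zipper factor of differentiating keratinocytes and of macrophages, rose by 0.93 (limma adjusted p = 0.0486). The mean of Maf was 1646 ± 195 (SD, n = 3) in the controls and 3235 ± 1364 (SD, n = 4) in the knockouts, without overlap. Snai2, a repressor that holds keratinocytes in the progenitor state and is also a mesenchymal gene, rose by 1.29 (limma adjusted p = 0.0394). Snai2 was at 290 and 312 in Zfp750_KO 1M and 2M, at 30.4 and 35.8 in 3F and 6F and at 118, 34.1 and 16.9 in the controls, so its groups overlapped. Maf and Snai2 each passed in 1 of the 7 fits without 1 library, that without control 4F (limma adjusted p up to 0.177 and 0.148 in the others).

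Of 33 terminal differentiation genes 20 could be tested, with 1 higher, 1 lower and 18 not past the threshold, where the shares over all genes were 1.55% and 2.35%. At an unadjusted p under 0.05 there were 9 of the 20, against 17.7% of all genes. Tgm1, the transglutaminase that cross-links the cornified envelope, rose by 1.18 (limma adjusted p = 0.015). It was at 36.4, 70.9 and 82.1 in the controls and at 134, 142, 160 and 200 in the knockouts. Its lowest value was in control 4F, which had the highest keratinocyte sum, and which cells carried Tgm1 was not tested. Ppl, an envelope plakin, fell by 0.90 (limma adjusted p = 0.0479), with values of 567, 269 and 269 in the controls against 288, 173, 116 and 144 in Zfp750_KO. Tgm1 therefore separated the groups and Ppl did not. Tgm1 passed in 4 of the 7 fits without 1 library, not without control 4M or 7F or Zfp750_KO 2M (limma adjusted p up to 0.0785). Ppl passed only without Zfp750_KO 1M (limma adjusted p up to 0.161 in the others). The median difference of the list was 0.15, against 0.02 for all genes tested.

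None of the 21 basal progenitor and p63 target genes passed in limma, with 5 of the 21 at an unadjusted p under 0.05 (17.7% of all genes tested) and a median difference of 0.18. Itgb1, an integrin chain, was at 0.64 ± 0.23 (SE) and Krt5 at 0.32 ± 0.39 (SE). None of the 20 tested genes of LSD1, CoREST and CtBP complexes passed in limma either, with 1 of the 20 at an unadjusted p under 0.05 (17.7% of all genes tested) and a median difference of 0.06. Zeb2, a repressor that binds CtBP, was at 0.22 ± 0.19 (SE), and Rreb1, a zinc finger partner of CtBP, was at 0.02 ± 0.15 (SE). Their differences ran from -0.54 to 0.53 over the list, a narrower range than the -1.08 to 1.41 of the terminal differentiation genes. The 1.41 was that of Krt1, at 0 in control 4M and Zfp750_KO 3F, and the -1.08 that of Dsg1a. The lists also differ in the level of their genes, and why the ranges differ was not tested. With the group as the only term none of the genes of these lists passed, and 1 or 2 in each list had an unadjusted p under 0.05, where 5.83% of all genes did.

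**Figure D5:**
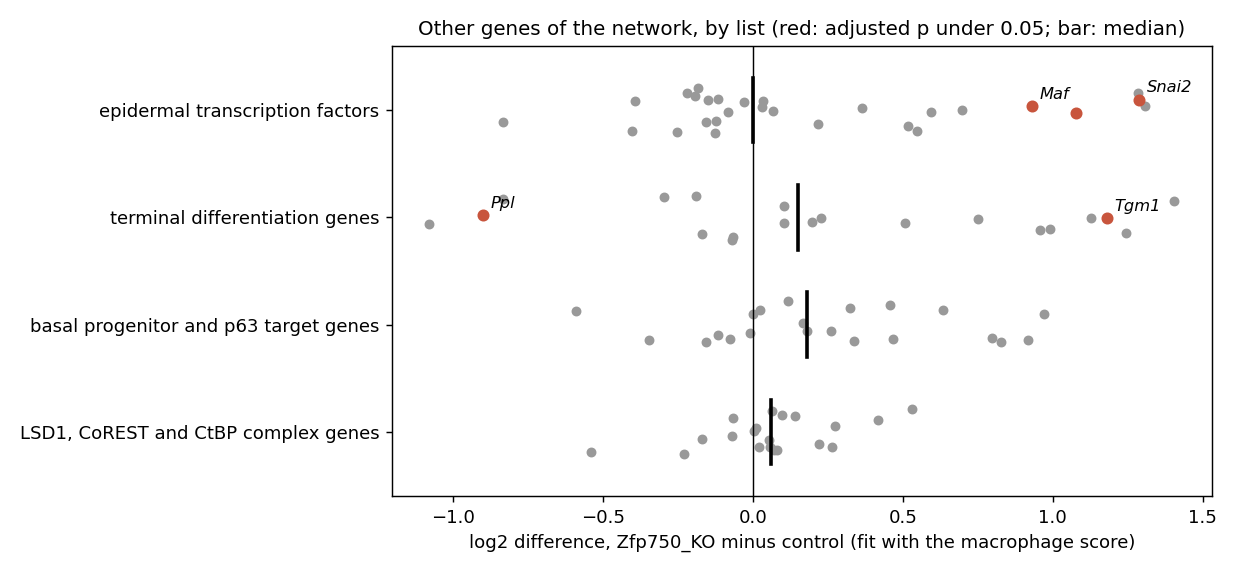
Points give the log2 difference (Zfp750_KO minus control) of every tested gene of 4 lists in the fit with the macrophage score, red points passed an adjusted p of 0.05, and black bars give list medians. The labelled genes Maf, Snai2 and Tgm1 lie above 0 and Ppl below, and the complex genes stay between -0.54 and 0.53.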

How the data were processed

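The 7 bulk RNA-seq libraries share 1 table, in which the authors deposited a signal, described as normalized counts. Per the submitters' processing notes, TopHat2 2.1.0 and Partek 9.0.20.0202 were used. Build and strand setting were not given in the sources used here. In each library 78.0% to 79.6% of low values (under 200 reads) came out as whole reads, within 0.02, so whole reads were not taken as recovered and no count model was run. The steps gave the read numbers. Values were analysed as log2(value + 11.9), the pseudocount being 1 per M of the median column total, which understates changes of low genes. Genes at 1 per M or more in at least 3 libraries were tested with limma 3.58.1 (R 4.3.3, lmFit, eBayes with trend), Benjamini-Hochberg adjusted over all of them, with the group term alone and with the macrophage score. Relative levels used exact permutation. Alternatives were other pseudocounts, filters and scalings, robust eBayes, array weights, a sex term from the letter in the column names, the keratinocyte score, and each library left out. Both fits were run on simulated data in which all libraries shared the same gene means apart from the changed genes. Differences in cell types between libraries were not simulated, so that run does not show how the fits handle them. Exon lengths are from GENCODE M21, by gene identifier; all 10 matched, and since stop minus start in the table equalled the annotated length for all 10, gene ends are printed as stop minus 1. The genes, lists and tests were chosen with earlier results of these data known. Named are the 10 genes, overlapping genes, up to 4 list genes that passed (otherwise the 2 with the highest means), and the closest profiles among genes at 3 per M or more. Single genes that meet this rule are not all reported here. No 2 libraries looked like repeats: between 39.4% and 77.9% of genes differed beyond counting noise.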

Additional observations from a re-analysis of the deposited data

Results flagged for a closer look

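Within the 4 Zfp750_KO libraries, Ctbp1 in 3F (1137) lay apart from 1391 to 1436 in the other 3. The gap was 0.85 of the whole range by Dixon's criterion. The ratio of Ctbp1 to Ctbp2 per kb of exon was also apart in 3F, at 3.09 against 4.37 to 4.59 in the other 3, with a gap of 0.852 of the range. Both results share the Ctbp1 value, 17 groups of 4 were examined, and chance flags about 1 in 20.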

How the results depend on the processing

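No paired analysis was possible because the columns carry none of the replicate numbers in the labels. The count of the 10 genes passing with the group term stayed at 0 in all alternatives except array weights, where it was 2 (Klf4 and Prdm1) and where 23 list genes passed. With the macrophage score the count of the 10 genes was 1. It was 2 with array weights and with a sex term, 0 with the keratinocyte score as the covariate, and 0 to 2 without 1 library (0 without control 4M, 2 without Zfp750_KO 6F). The list genes numbered 5 and were 3 with the smaller pseudocount, with a filter of 5 per M and with upper quartile scaling, 11 with array weights, 8 with a sex term, 0 with the keratinocyte score and 0 to 11 without 1 library (0 without control 4M or 7F, 11 without control 4F). Factors separated between the groups relative to keratinocyte genes numbered 2 (Zfp750 and Prdm1), and 1 with 4 times the pseudocount, where Zfp750 overlapped. The share of all genes that separate on this scale was not worked out, so these counts have no background. Relative values of Prdm1 also hold the keratinocyte score, at -3.23 in control 4F against -0.39 and -0.37 in 4M and 7F, while Prdm1 itself was level there. Trp63 was also separated without control 4M (-0.51) and without Zfp750_KO 2M (-0.51), and Grhl3 without control 4F (-0.70). Zfp750, Klf4 and Prdm1 kept their direction in every alternative run in both fits; Zfp750 and Grhl3 were not tested under the filter of 5 per M. The group-term difference of Zfp750 ran from -1.92 to -0.69 without 1 library and was -0.49 with array weights and -1.01 with 4 times the pseudocount. Over all genes the macrophage score fit called 281 higher and 426 lower; it called 12 and 47 with the keratinocyte score, 550 and 741 with a sex term and 512 and 740 with array weights. Leaving out 1 control gave 599 and 984 (4F), 59 and 100 (4M) or 94 and 124 (7F), and leaving out 1 knockout gave 134 and 304 (1M), 122 and 229 (2M), 199 and 247 (3F) or 206 and 277 (6F). With array weights the group term called 1883 and 1912, against 0 and 0. The other 7 genes never passed and took the opposite sign in some settings. With the group term these were, with array weights, Trp63 (1.39), Grhl3 (1.08), Ovol1 (1.18) and Ctbp1 (0.072); Grhl3 with 4 times the pseudocount (0.043); Rcor1 with values per M (0.011) and a sex term (0.010); and Kdm1a with upper quartile scaling (-0.0021), a sex term (-0.023) and the keratinocyte score (-0.011). Without 1 library the range was -0.86 to 0.89 for Trp63, -0.50 to 0.47 for Grhl3, -1.12 to 0.54 for Ovol1, -0.093 to 0.063 for Rcor1, -0.12 to 0.023 for Ctbp1, -0.14 to 0.27 for Kdm1a and -0.012 to 0.23 for Ctbp2. With the macrophage score they were Trp63 with upper quartile scaling (-0.0083), Trp63, Grhl3 and Rcor1 with array weights (-0.0027, -0.12 and 0.024), Rcor1 with a sex term (0.027), and Trp63, Grhl3 and Kdm1a with the keratinocyte score (-0.38, -0.19 and -0.011). Without 1 library the range there was -0.27 to 0.34 for Trp63, -0.14 to 0.33 for Grhl3, -0.096 to 0.093 for Rcor1, -0.52 to 0.16 for Ovol1 and -0.010 to 0.28 for Ctbp2. Grhl3 was at 0.12 relative to Trp63. The cause of these changes was not tested. Zfp750 and Grhl3 rest on as few as 9 and 4 reads, which limits their precision.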
